A study of Mus musculus with 6 samples.

Results

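Nuclear-encoded genes of the mitochondrial respiratory chain and ATP synthase were followed in RNA-seq of whole mouse skin. Members were taken by gene name, as names that begin with Nduf, Uqcr, Sdh or Atp5 or with Cox and a digit from 4 to 8. Names holding -ps, a mark of pseudogenes, and Gm names were left out. Of the 13 models so removed, Ndufb1-ps and Cox5b-ps are listed as protein coding, and how reads shared with such near-identical copies were counted is not given, so levels of members with expressed copies among them (Cox5b, Ndufa12, Ndufab1, Ndufs5, Atp5pb, Atp5k, Atp5l and Cox7c) are uncertain. This gave 99 of the 33308 genes in the table. They comprise 76 subunits, 7 isoforms or paralogs of complex IV subunits, 12 assembly factors and 4 processed pseudogenes. The subunits divide into 36 of complex I, 4 of complex II, 8 of complex III, 11 of complex IV and 17 of complex V. The skin came from mice labelled untreated (3 libraries, called controls 1 to 3) and from mice that received osimertinib over 42 days (3 libraries, called osimertinib 1 to 3). Osimertinib is a drug that blocks signalling by the epidermal growth factor receptor. The series was designed around the skin problems that it causes. The labels and design text state no strain, age, sex or dose. They also do not say whether the 3 libraries of either group stand for 3 mice. Each p-value therefore reflects how much these libraries vary, and that variation may be technical.

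As background, complex I (NADH dehydrogenase) and complex II (succinate dehydrogenase) feed electrons from metabolites into the ubiquinone pool. Complex III (cytochrome bc1) and complex IV (cytochrome c oxidase) carry them to oxygen, and complex V (ATP synthase) uses the proton gradient to make ATP. Most subunits are encoded in the nucleus, and a small core is encoded by mitochondrial DNA. In skin, the chain is present in all nucleated layers, and the striated muscle sheet beneath the dermis holds it at high density.

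The libraries held total counts from 54112624 to 60719064. They differed in muscle. A list of 24 skeletal muscle genes held 5.15%, 15.1% and 0.0349% of all counted reads in controls 1, 2 and 3, against 8.01%, 4.93% and 7.89% in osimertinib 1, 2 and 3. Control 2 thus held the most muscle RNA and control 3 almost none. The 95% Wilson intervals of these and the other shares of counts given here reach at most 0.00931 percentage points to each side and cover counting error only. Myh4, the myosin of fast fibres, reached 29138 CPM (counts scaled to library depth with TMM factors), while Myh7, the slow myosin, reached at most 0.810 CPM. The cardiac marker Nppa and the brown fat marker Ucp1 were at or near 0, with highest levels of 0.270 and 0.231 CPM. These are single genes of their lists. The 9 slow fibre genes together took 0.0172% to 0.0276% of counted reads in untreated skin and 0.0245% to 0.0465% in treated skin. Osimertinib 1 and 2 were highest there. The 7 cardiac genes took 0.00430% to 0.00530% and 0.00194% to 0.00682%. For the 6 brown adipocyte genes it was 0.00728% to 0.0117% and 0.00326% to 0.00772%. Keratinocyte genes, which mark the epidermis, took 1.24% to 4.98% of counted reads in untreated skin and 1.19% to 2.33% in treated skin. White adipocyte genes took 0.0620% to 0.349% and 0.105% to 0.235%, and smooth muscle genes 0.0244% to 0.0471% and 0.0194% to 0.0344%. These summed shares overlapped between the groups. The log2 fold change was negative in 9 of 9 keratinocyte genes (median −1.12), 10 of 10 white adipocyte genes (−0.89) and 5 of 5 smooth muscle genes (−0.91). Over all genes tested it was negative in 54.7%. Of these marker genes edgeR called 0, as it called 0% of all genes. DESeq2 called 1, a keratinocyte gene, against 6.39% of all genes.

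In their summed share the 76 subunits did not separate treated from untreated skin, and edgeR called 0 of them. Subunits of the 5 complexes were high in control 2 and low in control 3, and the 3 treated libraries lay between them in the median. The median log2 fold change (osimertinib over control) of the 76 subunits was 0.021, with 45 positive and 31 negative, beside a median of −0.045 over all 13498 genes tested. The split differed between fits of the same 6 libraries. With DESeq2 it was 33 positive and 43 negative (median −0.0088). With limma on log2(FPKM + 1) it was 75 positive and 1 negative (median 0.27), with 0 subunits called in either. With TMM factors taken without muscle and respiratory genes it was 44 positive and 32 negative (median 0.017). What made the fits differ was not tested. The 76 subunits together took 1.33%, 2.14% and 0.944% of counted reads in controls 1, 2 and 3 and 1.69%, 1.50% and 1.77% in treated skin. The means were 1.47% ± 0.609 in controls and 1.65% ± 0.139 in treated skin (SD, n = 3; two-sided exact permutation p = 0.7, where the smallest p of this design is 0.1). In bulk skin, fewer cells of a type and less RNA per cell cannot be told apart.

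Of the 99 members, 98 had a mean FPKM (fragments scaled by gene length and library depth) of at least 1 and were tested, the exception being the pseudogene Ndufa11b. The edgeR quasi-likelihood test called 0 of the 98 at an adjusted p under 0.05, as it called 0% of all genes. At an unadjusted p under 0.05 there were 2 members, Cox4i2 and Cox6b2, against 14.0% of all genes. DESeq2 called 1 member, Cox6b2, against 6.39% of all genes. By TMM-scaled CPM, each treated library lay above each control in 3 members (Cox4i2, Cox6b2 and Cox8a), against 11.4% of all genes. In 1 member, Cox7a2l, each treated library lay below each control, against 9.41% of all genes. Each of the last 4 counts is a smaller share of the 98 than the share it is set against.

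**Figure D1:**
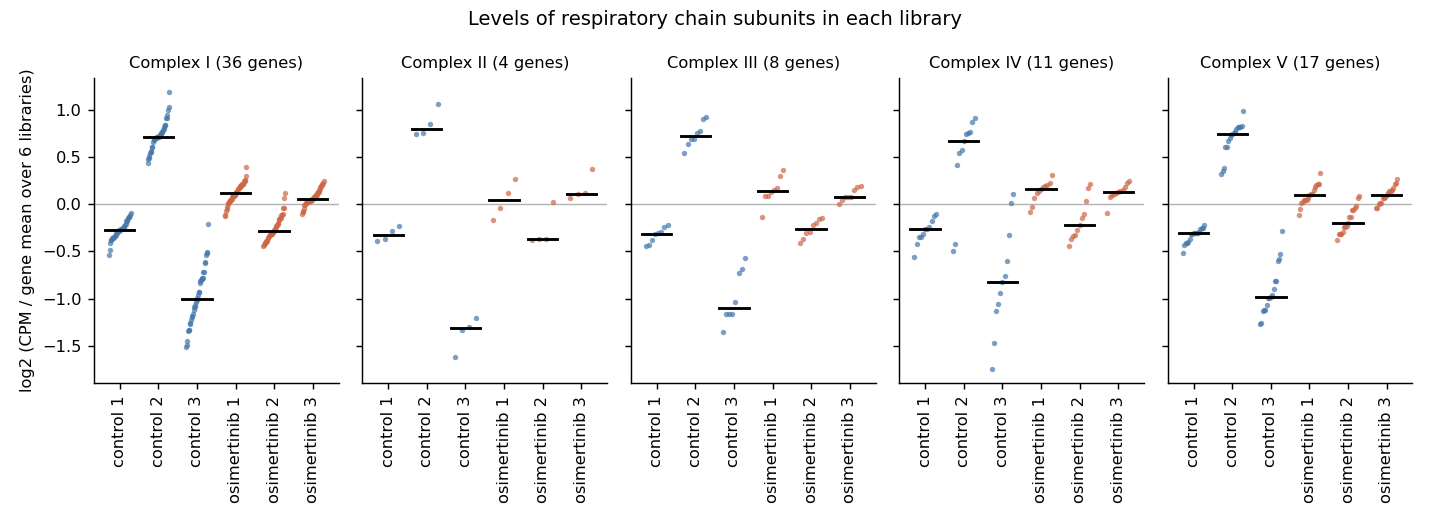
Level of each subunit gene in each library, as log2 of CPM over the gene's own mean across the 6 libraries, in 5 panels by complex. Points are genes, blue for controls and orange for osimertinib, and black bars are medians. Over the 76 subunits the medians are −0.30, 0.73 and −1.0 in controls 1, 2 and 3 and 0.12, −0.24 and 0.092 in osimertinib 1, 2 and 3.

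The spread inside the control group exceeded the distance between the groups. Control 2 was the highest library in 74 of 76 subunits, compared with 24.1% of all genes tested, and control 3 was the lowest in 73, compared with 23.4%. The ratio of control 2 to control 3 had a median of 3.35 over the subunits, from 0.657 to 6.40, and of 0.880 over all genes. Control 3 stood at a median of 45.6% of the mean of the other 5 libraries. By complex this median was 45.3% for complex I, 35.9% for complex II, 42.3% for complex III, 51.8% for complex IV and 46.2% for complex V. The subunits of complex II, whose levels were lowest in control 3 by this measure, also had the widest median ratio of control 2 to control 3 of the 5 complexes, at 4.31.

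Complex I takes electrons from NADH in its flavin module and passes them to ubiquinone. Its 36 subunits had a median log2 fold change of 0.0030, with 18 positive and 18 negative (13 and 23 in DESeq2), and the smallest adjusted p was 0.804. The 3 proteins of the flavin core (Ndufv1, Ndufv2, Ndufs1) had a median of 0.013 and the 29 accessory subunits −0.013. Ndufb7, an accessory subunit, was at 111, 225 and 75.8 CPM in controls 1, 2 and 3 and 203, 131 and 184 CPM in osimertinib libraries 1, 2 and 3. Its treated libraries lay between controls 1 and 2, and its log2 fold change was 0.34 ± 0.43 (SE, adjusted p = 0.804). Ndufa12, an accessory subunit needed late in assembly, was at 41.5, 137 and 23.8 CPM in controls 1, 2 and 3 and 55.2, 48.3 and 56.2 CPM in treated libraries 1, 2 and 3. Control 2 stood far above the other 5 libraries, control 3 was lowest, and the log2 fold change was −0.34 ± 0.62 (SE, adjusted p = 0.885). Its left-out copy Ndufa12-ps was at 46.7, 54.4 and 25.3 CPM in controls 1, 2 and 3. In osimertinib 1, 2 and 3 the copy was at 64.6, 53.7 and 62.5 CPM, with a positive log2 fold change of 0.52 ± 0.29 (SE, adjusted p = 0.487). Reads shared by the 2 models could alter the level and sign of Ndufa12. Ndufv3, an accessory subunit of the flavin module, was at 73.5, 126 and 74.0 CPM in controls 1, 2 and 3 and 90.9, 68.7 and 80.6 CPM in osimertinib 1, 2 and 3, with controls 1 and 3 nearly level and osimertinib 2 lowest (−0.18 ± 0.26, SE). The highest mean FPKM in the complex was that of Ndufa2, an accessory subunit, at 255, and the lowest that of Ndufb2, chosen after its values were seen, at 7.94. Ndufa2 differed by 0.12 ± 0.42 (SE) between the groups.

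Complex II is both an enzyme of the citric acid cycle and an entry point to the chain, and all of its subunits are nuclear. The median log2 fold change of the 4 was 0.048, with 3 positive and 1 negative (2 and 2 in DESeq2). Sdha, the flavoprotein that oxidises succinate, was at 294, 724 and 113 CPM in controls 1, 2 and 3 and 308, 268 and 372 CPM in treated libraries 1, 2 and 3. Among the 76 subunits it had the widest ratio, being 6.40 times as high in control 2 as in control 3, and it had a log2 fold change of −0.25 ± 0.63 (SE, adjusted p = 0.928). Sdhb, the iron-sulfur protein, differed by 0.034 ± 0.52 and the membrane anchors Sdhc and Sdhd by 0.061 ± 0.50 and 0.15 ± 0.52 (SE). The 2 anchors were thus on the positive side and Sdha on the negative side, all within 1 SE of 0. Sdhd was at 111, 241 and 57.5 CPM in controls 1, 2 and 3 and 157, 111 and 187 CPM in osimertinib 1, 2 and 3. Osimertinib 2 was level with control 1, and the other 2 treated libraries lay between controls 1 and 2.

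Complex III passes electrons from ubiquinol to cytochrome c. Of its 8 subunits 5 had a positive log2 fold change and 3 a negative one, with a median of 0.016 (3 and 5 in DESeq2). The 5 positive ones were the small subunits Uqcr10, Uqcr11, Uqcrb, Uqcrh and Uqcrq. The 3 negative ones were the Rieske iron-sulfur protein Uqcrfs1 (−0.10 ± 0.55, SE) and the core proteins Uqcrc1 (−0.050 ± 0.38) and Uqcrc2 (−0.13 ± 0.51). Uqcrq, a small ubiquinone-binding subunit, was at 119, 260.5 and 72.1 CPM in controls 1, 2 and 3 and 208, 132 and 179 CPM in osimertinib libraries 1, 2 and 3. Treated libraries again fell between controls 1 and 2, at 0.20 ± 0.48 (SE, adjusted p = 0.924). The most abundant per length was Uqcr10, at a mean of 238 FPKM, followed by the hinge protein Uqcrh at 231 FPKM. Uqcrh differed by 0.12 ± 0.39 and Uqcr10 by 0.065 ± 0.46 (SE).

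Complex IV reduces oxygen to water, and several of its subunits exist in a ubiquitous form and a tissue form. The 11 ubiquitous subunits had a median log2 fold change of 0.063, with 8 positive and 3 negative (7 and 4 in DESeq2). Their median FPKM was 135, 147 and 89.9 in controls 1, 2 and 3 and 178, 159 and 193 in osimertinib 1, 2 and 3, without overlap. Their mean FPKM did overlap, at 141, 191 and 118 in controls 1, 2 and 3 and 182, 161 and 187 in osimertinib 1, 2 and 3. In complexes I, II, III and V the median FPKM of the subunits overlapped between the groups as well. Cox4i1, which has the highest level per length of all 76 subunits (mean 329 FPKM), was at 506, 899.7 and 399.8 CPM in controls 1, 2 and 3 and 695, 480.2 and 661 CPM in osimertinib libraries 1, 2 and 3 and differed by 0.025 ± 0.37 (SE). Cox6b1, on the intermembrane face, was next within the complex at 281 FPKM and differed by 0.11 ± 0.36 (SE). Ndufa4, which was once assigned to complex I and is now placed in complex IV, differed by 0.067 ± 0.57 and Cox7b by −0.0081 ± 0.43 (SE). Cox5a, named here after its values were seen, was at 163, 451 and 71.5 CPM in controls 1, 2 and 3 and 296, 176 and 279 CPM in osimertinib libraries 1, 2 and 3, and control 3 stood at 26.2% of the mean of the other libraries, the lowest such value of the 76 subunits. Its treated libraries lay between controls 1 and 2.

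Cox8a and Cox6a1 did not follow the library order of the other subunits. Cox8a, the ubiquitous form of subunit 8 (chromosome 19, 7215153 to 7217616), was at 102, 89.7 and 122 CPM in controls 1, 2 and 3 and 131, 136 and 143 CPM in osimertinib libraries 1, 2 and 3. By these TMM-scaled values it is the 1 subunit of 76 in which each treated library lay above each control, and control 2 was the lowest library. Without the TMM factors (1.12 in control 3 and 0.980 in osimertinib 1), control 3 would lie above osimertinib 1 for Cox8a. Its log2 fold change was 0.39 ± 0.18 (SE), or 1.31-fold, with an unadjusted p of 0.0704, an adjusted p of 0.399 and 0.142 by DESeq2. Over the alternatives its adjusted p ran from 0.142 to 0.824, and the log2 fold change was 0.51 without control 3 and 0.31 without control 2. Cox6a1, the ubiquitous form of subunit 6a (chromosome 5, 115345642 to 115348981), was at 129, 99.5 and 151 CPM in controls 1, 2 and 3 and 148, 163 and 154 CPM in treated libraries 1, 2 and 3. Control 2 was lowest here too, control 3 overlapped with the treated libraries, and the log2 fold change was 0.29 ± 0.21 (SE, adjusted p = 0.588). These 2 genes are the 2 subunits in which control 2 was not the highest library.

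Complex V makes ATP in its F1 head, driven by rotation of a ring of subunit c in the membrane. Its 17 subunits had a median log2 fold change of 0.024, with 11 positive and 6 negative (8 and 9 in DESeq2). The 5 subunits of the head had a median of −0.014 and the 4 of the peripheral stalk 0.018. Atp5a1, the alpha subunit of the head, had the highest mean in the complex (288 FPKM) and was at 882, 1845 and 545 CPM in controls 1, 2 and 3 and 1051, 985 and 1203 CPM in osimertinib libraries 1, 2 and 3. Treated libraries lay between controls 1 and 2, with a log2 fold change of −0.014 ± 0.48 (SE). Atp5h, a stalk subunit, was at 218, 330.5 and 171 CPM in controls 1, 2 and 3 and 277, 276 and 286 CPM in osimertinib 1, 2 and 3. It had the smallest p of the complex, with a log2 fold change of 0.22 ± 0.28 (SE, adjusted p = 0.800).

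Subunit c is encoded by 3 genes whose mature proteins are the same, and they did not spread alike over the libraries. Atp5g1 was at 133, 376 and 86.9 CPM in controls 1, 2 and 3 and 196, 147 and 203 CPM in osimertinib libraries 1, 2 and 3, a ratio of control 2 to control 3 of 4.33. For Atp5g2 the values were 196, 316 and 168 CPM in controls 1, 2 and 3 and 269, 232 and 273 CPM in treated libraries 1, 2 and 3, with a ratio of 1.88. Atp5g3 was at 347, 658 and 219 CPM in controls 1, 2 and 3 and 498, 346 and 519.8 CPM in osimertinib 1, 2 and 3, with a ratio of 3.00. Atp5g1 therefore varied most with the library and Atp5g2 least. Their log2 fold changes were −0.13 ± 0.55, 0.19 ± 0.28 and 0.16 ± 0.44 (SE), within the spread of the controls for all 3.

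The muscle isoforms of complex IV followed the libraries in the order of their muscle share, except that osimertinib 1 and 3 were level for Cox6a2. Cox6a2, Cox7a1 and Cox8b replace Cox6a1, Cox7a2 and Cox8a in heart and skeletal muscle. Cox6a2 (chromosome 7, 128205435 to 128206387) was at 159, 513 and 0.809 CPM in controls 1, 2 and 3 and 226, 137 and 226 CPM in osimertinib libraries 1, 2 and 3. Cox7a1 (chromosome 7, 30184144 to 30186078) was at 51.1, 223 and 1.04 CPM in controls 1, 2 and 3 and 95.9, 48.8 and 61.5 CPM in treated libraries 1, 2 and 3, and Cox8b (chromosome 7, 140898945 to 140900446) was at 76.7, 247 and 1.15 CPM in controls 1, 2 and 3 and 109, 64.3 and 95.9 CPM in osimertinib 1, 2 and 3. Control 3 stood at 0.321%, 1.09% and 0.971% of the mean of the other libraries in these 3 genes, against 109%, 76.9% and 101% for the ubiquitous partners. Their log2 fold changes of −0.19 ± 1.52, −0.41 ± 1.38 and −0.27 ± 1.36 carry standard errors above 1. Cox7a2 was at 103, 147 and 88.4 CPM in controls 1, 2 and 3 and 108, 113 and 103 CPM in osimertinib libraries 1, 2 and 3, with a log2 fold change of −0.056 ± 0.23 (SE).

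Within a library, the share of the muscle form in each pair does not depend on library scaling. By FPKM, Cox6a2 made up 56.0%, 84.2% and 0.539% of the subunit 6a pair in controls 1, 2 and 3 and 61.2%, 46.4% and 60.3% in treated skin. For Cox7a1 the shares were 46.8%, 72.8% and 2.01%, then 61.0%, 43.2% and 51.2%. For Cox8b they were 56.4%, 82.6% and 1.59%, then 58.9%, 44.8% and 53.6%. In each pair control 2 was highest, control 3 lowest and osimertinib 2 lowest of the treated libraries. The mean log2 ratio was higher in treated skin by 1.94, 1.56 and 1.26 in the order given, with two-sided exact permutation p of 0.8, 0.8 and 0.9 (0.9 for each after Benjamini-Hochberg adjustment over the 3 pairs, where 0.1 is the smallest raw p possible). Control 3 decided that direction, since without it the differences were −1.03, −0.51 and −1.16.

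**Figure D2:**
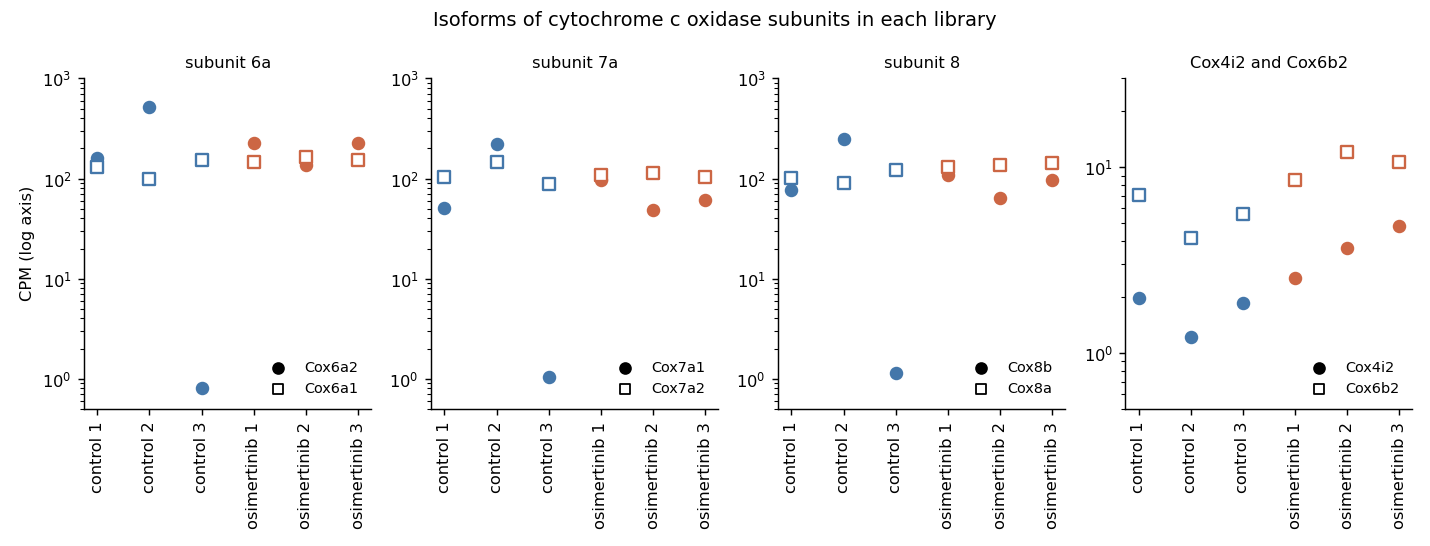
CPM on a log axis in each library for 3 pairs of complex IV isoforms, with the muscle form as filled circles and the ubiquitous form as open squares, and for Cox4i2 and Cox6b2; blue marks controls and orange marks osimertinib. The muscle forms span 0.809 to 513 CPM (Cox6a2) while Cox6a1 stays between 99.5 and 163 CPM, and in the last panel each treated library lies above each control for both genes.

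Sequence upstream of the start is shown for 5 of the 6 isoforms whose levels parted in this way (not Cox6a2), ubiquitous forms first, since they belong to 1 enzyme and differ in their order over the libraries. The windows are from RefSeq promoters on GRCm38.p6, on the strand of the gene, and hold no annotated exon. Capitals mark motif letters on either strand: the palindrome of the nuclear respiratory factor NRF1 and its core GCATGCGC, GGGCGG for Sp1 and CAGCTG for an E-box.
Cox6a1 (chr5:115348982-115349128, minus strand): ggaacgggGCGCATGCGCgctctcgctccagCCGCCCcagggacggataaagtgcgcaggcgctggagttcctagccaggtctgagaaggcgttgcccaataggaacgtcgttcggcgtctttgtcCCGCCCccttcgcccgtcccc
Cox7a2 (chr9:79759879-79759983, minus strand): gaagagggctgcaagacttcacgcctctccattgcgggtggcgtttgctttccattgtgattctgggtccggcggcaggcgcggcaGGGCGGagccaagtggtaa
Cox8a (chr19:7217617-7217716, minus strand): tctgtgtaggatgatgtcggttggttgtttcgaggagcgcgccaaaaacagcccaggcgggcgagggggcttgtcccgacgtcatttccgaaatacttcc
Cox7a1 (chr7:30184041-30184143, plus strand): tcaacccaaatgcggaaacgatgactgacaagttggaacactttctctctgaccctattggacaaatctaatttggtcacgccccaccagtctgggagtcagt
Cox8b (chr7:140900447-140900546, minus strand): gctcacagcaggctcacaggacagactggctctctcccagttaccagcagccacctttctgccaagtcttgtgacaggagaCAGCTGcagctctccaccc
The Cox6a1 window held the NRF1 letters once and the Sp1 letters at 2 positions, the Cox7a2 window held Sp1 once, and the Cox8b window held 1 E-box. None of the searched letters was in the Cox8a and Cox7a1 windows, while the wider promoters of Cox8a and Cox6a1 held the ETS letters given next.

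Promoters of 79 members were matched in the RefSeq table, from 250 bases before the start to 50 after it. The NRF1 core was in 15.2% of them, against 2.71% of the 32851 promoters in the table, and the longer NRF1 palindrome, which contains that core, in 8.86% against 0.971%. The ETS letters CCGGAAG, read by the GABP factor, were in 27.8% against 8.86%, and the YY1 letters AAGATGGC in 13.9% against 2.75%. AAGGTCA, a site of the estrogen-related receptors, was in 10.1% against 4.72%, and GGGCGG in 48.1% against 35.7%. The E-box CAGCTG was in 7.59% against 16.3%. The MEF2 motif was in 0 member promoters against 0.557%, and the CArG box in 0 against 1.63%. Both strands were searched. Member shares count genes, while the shares they are set against count promoters, so the measures are not the same. These shares describe letters, with no test, and the letters were settled after matches had been seen.

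Cox4i2 and Cox6b2 were the members with the smallest p, and both were at low levels. Cox4i2, an isoform of subunit 4 known from lung and from oxygen sensing (chromosome 2, 152754173 to 152765037), was at 1.97, 1.23 and 1.85 CPM in controls 1, 2 and 3 and 2.52, 3.65 and 4.80 CPM in osimertinib libraries 1, 2 and 3. Each treated library lay above each control, by a log2 fold change of 1.12 ± 0.37 (SE), with an unadjusted p of 0.0215 and an adjusted p of 0.297, or 0.0632 in DESeq2 and 0.0632 to 0.720 over the alternatives. Cox6b2, an isoform of subunit 6b known from testis (chromosome 7, 4751792 to 4753094), was at 7.09, 4.18 and 5.57 CPM in controls 1, 2 and 3 and 8.51, 12.0 and 10.7 CPM in treated libraries 1, 2 and 3. The groups did not overlap here either, and the log2 fold change was 0.89 ± 0.28 (SE), with an unadjusted p of 0.0192, an adjusted p of 0.288 and 0.0432 in DESeq2, the 1 alternative of 14 that called it (range 0.0432 to 0.717). Per length they reached means of 2.95 and 6.31 FPKM, beside 329 for Cox4i1 and 281 for Cox6b1. Neither followed the order of muscle RNA, and control 2, with the most of it, was lowest in both. With the muscle score as a covariate their log2 fold changes were 1.22 and 0.94, and without control 3 1.20 and 0.90. The 9 hair shaft genes of the marker lists, keratins and their partners made in the growing hair, also stood higher in each treated library in their summed share, at 0.000338% to 0.0163% of counted reads in untreated skin and 0.0507% to 0.481% in treated skin, with none at 0 throughout. The part of these genes, and of the keratinocyte, white adipocyte and smooth muscle genes with their negative medians, in the values of Cox4i2, Cox6b2, Cox8a and Cox7a2l was not tested.

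Cox7a2l and Ndufa4l2 were on the lower side in treated skin. Cox7a2l, a paralog of subunit 7a that joins complexes III and IV into supercomplexes, was at 228, 223 and 231 CPM in controls 1, 2 and 3 and 206, 186 and 206 CPM in osimertinib libraries 1, 2 and 3. By these TMM-scaled values controls were nearly level, each treated library lay below them, and the log2 fold change was −0.19 ± 0.17 (SE, adjusted p = 0.674). Without the TMM factors (0.806 in control 2), control 2 would lie below each treated library. Ndufa4l2, a paralog of Ndufa4 known to be induced by low oxygen, was at 242, 94.7 and 226 CPM in controls 1, 2 and 3 and 196, 76.3 and 57.2 CPM in treated libraries 1, 2 and 3. Control 2 and osimertinib 2 and 3 were low and the other 3 libraries high, so the groups overlapped, and the log2 fold change was −0.77 ± 0.57 (SE, adjusted p = 0.604).

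Assembly factors, which build the complexes without staying in them, had a narrower ratio between control libraries than the subunits did. The 8 factors of complex I and 4 of complex II had a median log2 fold change of −0.030, with 5 positive and 7 negative, and a median ratio of control 2 to control 3 of 1.96. Sdhaf1, which helps insert the iron-sulfur clusters of Sdhb, was at 17.6, 28.1 and 13.4 CPM in controls 1, 2 and 3 and 26.1, 22.4 and 26.6 CPM in osimertinib libraries 1, 2 and 3, with a log2 fold change of 0.35 ± 0.29 (SE, adjusted p = 0.665). Ndufaf8, a complex I factor, was at 18.4, 25.2 and 17.0 CPM in controls 1, 2 and 3 and 29.7, 18.1 and 26.0 CPM in treated libraries 1, 2 and 3, with 0.29 ± 0.26 (SE, adjusted p = 0.689). For Sdhaf1 the treated libraries lay between controls 1 and 2, and for Ndufaf8 they overlapped with controls 1 and 2. Ndufaf3, chosen after its values were seen, was the most even of the factors, between 11.7 and 14.8 CPM.

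The level of the subunits was set beside the muscle share of each library. In the order of muscle share, from control 3 through osimertinib 2, control 1, osimertinib 3 and osimertinib 1 to control 2, the subunits took 0.944%, 1.50%, 1.33%, 1.77%, 1.69% and 2.14% of the count. Both ends of the order were controls. With the mean log2 level of the 24 muscle genes as a covariate, the median log2 fold change of the subunits was −0.20, with 71 of 76 negative and 0 called. The muscle score of control 3 was −6.43 against 0.55 to 2.55 in the other 5 libraries, and with control 3 also left out the median was 0.038, with 48 positive and 28 negative. Control 1 and osimertinib 2 held nearly the same share of muscle. Between these 2 libraries, chosen for that after the shares were seen, the median log2 ratio (osimertinib 2 over control 1) was 0.086, with 48 of 76 subunits above 0, beside −0.061 and 46.8% over all genes. With 1 library on each side, no test of this was possible. The part of muscle content in the values of the members was not tested beyond these fits.

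**Figure D3:**
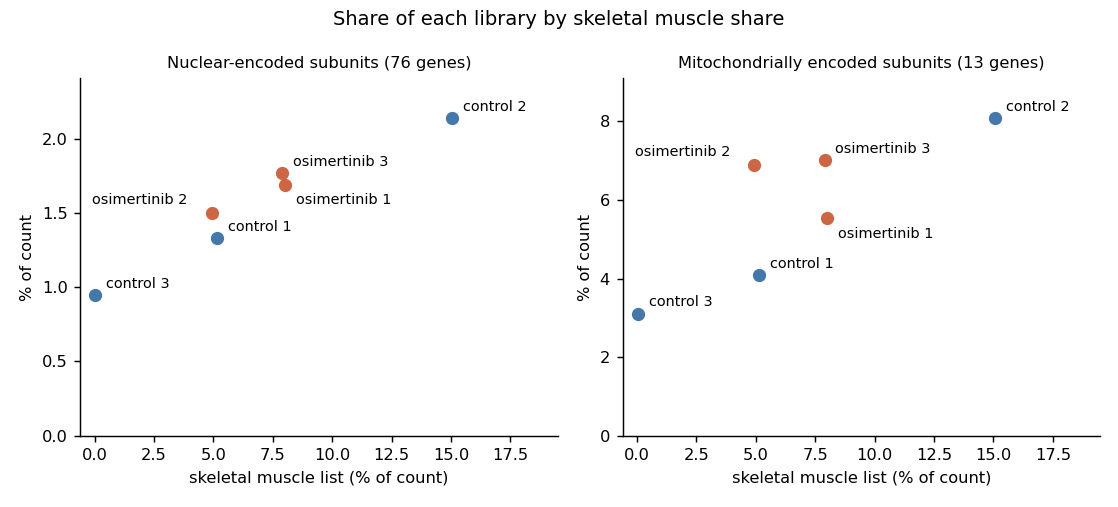
Share of the count taken by the 76 nuclear-encoded subunits (left) and by 13 mitochondrially encoded subunits (right), in percent, against the share taken by 24 skeletal muscle genes, 1 point per library with controls in blue and osimertinib in orange. Control 3 lies at the bottom left and control 2 at the top right of both panels, and osimertinib 2 lies above control 1 at nearly the same muscle share.

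Single libraries set the sign of the complex medians. Without control 2 the median of the subunits was 0.63, all 76 were positive, and 34 had an unadjusted p under 0.05 with treated skin higher, against 10.1% of all genes. No subunit passed adjustment there. Without control 3 the median was −0.31 with 71 negative, and without control 1 it was −0.11 with 60 negative. Complex I ran from −0.32 to 0.60, complex II from −0.33 to 0.77, complex III from −0.28 to 0.64, complex IV from −0.23 to 0.59 and complex V from −0.31 to 0.65 as each library was left out in turn. The lowest of these came without control 3 and the highest without control 2 in each complex.

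**Figure D4:**
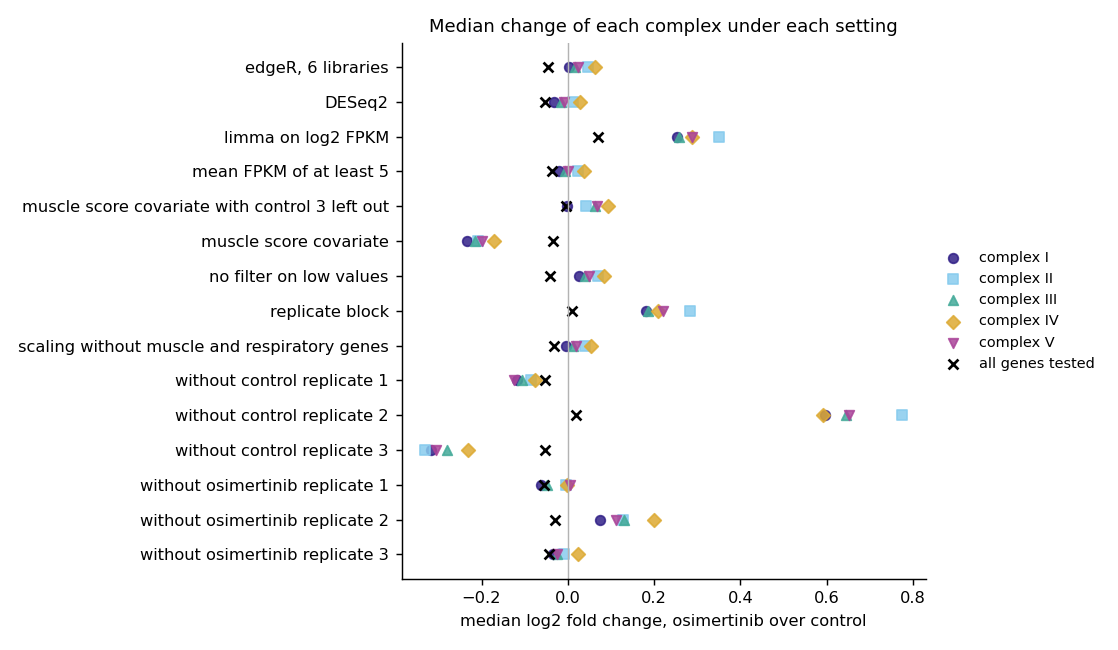
Median log2 fold change (osimertinib over control) of the subunits of each complex, as coloured symbols, and of all genes tested, as black crosses, under the edgeR fit on 6 libraries and 14 other settings. The complexes move together from setting to setting, between the lowest values without control 3 and the highest without control 2.

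Other mitochondrial genes were read from lists written for this comparison. The 13 mitochondrially encoded subunits had a median log2 fold change of 0.18, with 11 positive, 2 negative and 0 called by edgeR or DESeq2, and in all 13 control 2 was highest and control 3 lowest. Over all settings that median ran from −0.16 to 0.93. Together they took 4.08%, 8.08% and 3.11% of counted reads in untreated skin and 5.54%, 6.88% and 7.02% in treated skin (two-sided exact permutation p = 0.4, n = 3 per group). mt-Nd6, a membrane subunit of complex I, had the smallest p, at 0.50 ± 0.50 (SE, adjusted p = 0.728). The libraries at both ends of this order were thus those of the nuclear-encoded subunits, while osimertinib 2, the lowest treated library there, lay between osimertinib 1 and 3 here.

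Of the 18 genes tested among electron carriers and partner enzymes, 6 were positive and 12 negative, edgeR called 0 and DESeq2 called 1, against its 6.39% of all genes. That gene, Prodh, proline dehydrogenase, which passes electrons from proline to the chain, was at 39.7, 34.4 and 48.0 CPM in controls 1, 2 and 3 and 22.3, 20.3 and 17.7 CPM in osimertinib libraries 1, 2 and 3. Each treated library lay below each control, which held for 9.41% of all genes. The log2 fold change was −1.02 ± 0.19 (SE), with an adjusted p of 0.180 in edgeR and 6.00e-05 in DESeq2 (range over the alternatives 6.00e-05 to 0.664). Among the carriers, Cycs, cytochrome c, differed by −0.11 ± 0.64 and Cyc1, the cytochrome of complex III that the name rule does not take, by 0.11 ± 0.47 (SE).

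Genes that feed the chain were read with the same list rule. Among 17 citric acid cycle genes 4 were positive and 13 negative (median −0.13), and among 14 of fatty acid oxidation 2 and 12 (median −0.11). None of either list was called by edgeR or DESeq2, and control 3 was the lowest library in 16 of 17 and 13 of 14. Among 19 glycolysis genes 3 were positive and 16 negative (median −0.19), with 0 called. The sign of these 3 medians depended on the libraries and the fit, since over all settings they ran from −0.50 to 0.56, from −0.45 to 0.30 and from −0.53 to 0.84, each highest without control 2 and lowest without control 3. The mitochondrial ribosome, which translates the mitochondrially encoded subunits, had 70 of 81 genes positive, a median of 0.18 and 0 called by edgeR or DESeq2. Its median stayed positive in the 15 fits run, from 0.030 without control 3 to 0.46 without control 2. In 6 of the 81 each treated library lay above each control, against the 11.4% of all genes. The summed share of raw counts of the 83 genes listed did not overlap between the groups. It was 0.299% to 0.349% of counted reads in untreated skin and 0.379% to 0.389% in treated skin, and this was not tested. That share is not scaled by the TMM factors, which ran from 0.806 in control 2 to 1.12 in control 3. Scaled by them, control 2 would lie above each treated library. By TMM-scaled CPM, control 2 was the highest library in 52 of the 81 genes, compared with 24.1% of all genes tested. Control 3 was the lowest in 53, compared with 23.4%. Mrpl20, a protein of the large subunit of this ribosome, was at 51.3, 60.1 and 49.7 CPM in controls 1, 2 and 3. It was at 72.3, 79.1 and 75.4 CPM in treated libraries 1, 2 and 3, with a log2 fold change of 0.49 ± 0.14 (SE, adjusted p = 0.269). All genes had a median of −0.045 with 45.3% positive.

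Of 15 regulators of mitochondrial transcription and biogenesis tested, 9 were positive and 6 negative, and 0 were called by edgeR or DESeq2. In 2 of them, Perm1 and Polg2, each treated library lay below each control (9.41% of all genes), and in 1, Gabpb1, each lay above (11.4% of all genes). Perm1, a muscle-enriched cofactor of oxidative gene expression, was at 124, 199 and 134 CPM in controls 1, 2 and 3 and 116, 82.5 and 85.5 CPM in osimertinib libraries 1, 2 and 3. Its level did not follow the order of muscle share. Control 3, with almost no muscle RNA, stood above control 1 and each treated library. The log2 fold change was −0.68 ± 0.26 (SE), with an unadjusted p of 0.0357 and an adjusted p of 0.333. Polg2, the accessory subunit of the mitochondrial DNA polymerase, differed by −0.46 ± 0.25 (SE, adjusted p = 0.465), and Gabpb1, a subunit of the GABP factor, by 0.27 ± 0.17 (SE, adjusted p = 0.537). Twnk, the mitochondrial helicase, differed by 0.37 ± 0.20, Tfam, which packages and transcribes mitochondrial DNA, by 0.12 ± 0.24 and Nrf1, the factor of the NRF1 motif, by 0.37 ± 0.24 (SE). Ppargc1a, the coactivator PGC-1 alpha, was at 5.70, 22.2 and 2.07 CPM in controls 1, 2 and 3 and 5.40, 4.66 and 6.92 CPM in osimertinib 1, 2 and 3 and did not pass the filter on mean FPKM.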

How the data were processed

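Poly(A) RNA of mouse skin was sequenced as paired-end reads in 6 libraries, 3 untreated and 3 after 42 days of osimertinib, per the labels' protocols. The authors deposited 1 table of raw counts and FPKM per gene, per the file headers. Reads were trimmed with cutadapt 1.9 and the build is GRCm38, per the submitters' processing notes; the aligner, the counter and the use of strand and of molecular identifiers in counting were not given in these sources. A further 6 columns of values match no sample and were not used. In 26 members a gene on the opposite strand overlaps, so their reads may not be told apart.

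Counts were tested with edgeR 4.0.16 (R 4.3.3; quasi-likelihood, TMM scaling) on the 13498 genes whose FPKM averaged 1 or more, with Benjamini-Hochberg adjustment over all of them and a threshold of 0.05. Standard errors are the log2 fold change over the root of F. CPM are TMM-scaled counts. Deposited FPKM were used for the filter, for levels between genes and for isoform ratios. Shares of counts and isoform ratios were compared by exact permutation (scipy 1.17.1). Alternatives were DESeq2 1.42.0, limma 3.58.1 on log2(FPKM + 1), other filters and scaling, a muscle score, a replicate block and leaving out each library. The edgeR fit was tested on simulated data of 13498 genes, each drawn independently of the others, with 0 false calls.

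Members, lists and alternatives were chosen with earlier results of these data known. The assignment of Ndufa4, Cox7a2l and Ndufa4l2, the 9 promoter motifs, the windows shown and the ratios between single libraries were set after values were seen. Genes were named by rule: in each complex the 3 subunits with the smallest p and the 1 with the highest mean FPKM, the isoform sets and subunit c genes, the 2 assembly factors with the smallest p, and up to 3 genes of a context list. Genes outside the rule (Cox5a, Ndufb2, Ndufaf3, Sdhb, the other subunits of complex III, Cycs, Cyc1, Gabpb1, Tfam, Nrf1, Ppargc1a and marker genes) were chosen after values were seen.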

Additional observations from a re-analysis of the deposited data

How the results depend on the processing

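Of the 32 genes named by rule, 11 kept the sign of their log2 fold change under every alternative run, among them Cox4i2, Cox6b2, Cox8a, Cox6a1 and Cox7a2l, and Cox6b2 was the 1 gene newly called, by DESeq2. Genes called over the whole table numbered 858 with DESeq2, 17 with limma on log2(FPKM + 1), 2 where FPKM had to average 5 or more and 1 with the muscle score covariate, against 0 in edgeR, which had 1883 at an unadjusted p under 0.05; respiratory chain members called numbered 1 with DESeq2 against 0.

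With DESeq2 the sign turned for Cox4i1 (−0.0012). With limma on log2(FPKM + 1) the sign turned for Atp5a1 (0.25), Atp5g1 (0.22), Cox6a2 (2.03), Cox7a1 (1.43), Cox7a2 (0.063), Cox7b (0.24), Cox8b (1.61), Ndufa12 (0.12), Sdha (0.20) and Uqcrc2 (0.19). With that covariate and control 3 left out the sign turned for Atp5g1 (0.029) and Cox7b (0.012). With the muscle score as covariate the sign turned for Atp5g3 (−0.085), Cox4i1 (−0.17), Cox6b1 (−0.10), Ndufa2 (−0.12), Ndufa4 (−0.20), Sdhc (−0.20), Sdhd (−0.12), Uqcr10 (−0.18), Uqcrh (−0.094) and Uqcrq (−0.054). With no filter on low values the sign turned for Atp5a1 (0.010) and Cox7b (0.017). With the replicate number as a block (replicate block) the sign turned for Atp5a1 (0.17), Atp5g1 (0.17), Cox6a2 (1.10), Cox7a1 (1.18), Cox7b (0.16), Cox8b (1.02), Ndufa12 (0.074), Sdha (0.11) and Uqcrc2 (0.12).

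Leaving out 1 library at a time gave log2 fold changes in these ranges: the median of all subunits −0.31 to 0.63, that of complex IV −0.23 to 0.59, that of complex V −0.31 to 0.65, Atp5a1 −0.35 to 0.63, Atp5g1 −0.50 to 0.75, Atp5g3 −0.16 to 0.71, Cox4i1 −0.21 to 0.46, Cox6a2 −0.80 to 1.34 and Cox6b1 −0.15 to 0.57. Further ranges were Cox7a1 −1.02 to 1.45, Cox7a2 −0.21 to 0.20, Cox7b −0.33 to 0.62, Cox8b −0.87 to 1.26, Ndufa12 −0.76 to 0.73, Ndufa2 −0.19 to 0.59, Ndufa4 −0.35 to 0.91, Ndufv3 −0.32 to 0.14 and Sdha −0.70 to 0.67. The rest were Sdhc −0.31 to 0.73, Sdhd −0.23 to 0.88, Uqcr10 −0.27 to 0.76, Uqcrc2 −0.51 to 0.64, Uqcrh −0.14 to 0.57, Uqcrq −0.15 to 0.88, log2 ratio Cox6a2/Cox6a1 −1.03 to 3.94, log2 ratio Cox7a1/Cox7a2 −0.51 to 3.00 and log2 ratio Cox8b/Cox8a −1.16 to 2.93.

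Same-numbered libraries had correlated deviations of 0.222, 0.0294 and −0.115, so the numbers were not taken to pair the libraries; with the replicate block the median of all subunits was 0.20, with 70 positive and 0 called. The causes of these changes were not tested. With 3 libraries a group and this spread, simulated 2-fold changes were recovered in 1.49% of cases, 4-fold in 28.4% and 8-fold in 74.2%, so an absent call does not show that groups were equal. The simulation drew each gene independently and held no shift shared by many genes of a library. The subunits had such a shift in controls 2 and 3, so these rates may not hold for them.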
